A study of Mus musculus with 9 samples.

Results

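The synapsis and recombination genes of meiotic prophase are 40 genes whose products pair homologous chromosomes and break and repair their DNA in spermatocytes. They were taken by gene symbol from a gene table of 9 RNA sequencing libraries, and all 40 were found among its 54532 genes. The libraries came from mouse material described as male germ cells and titled spermatocytes, taken on postnatal day 35, in 3 groups of 3. The first group is ClpP cKO, in which Clpp was deleted conditionally, the next is ClpX cKO, in which Clpx was deleted in the same way, and the last is Control, with a WT genotype. Cre recombinase under the Stra8 promoter made the deletions, in germ cells from the late spermatogonial stage on, so cells before that stage and somatic cells of the testis keep both genes. The labels do not say whether Control mice carried Cre or floxed alleles, how the cells were isolated, or whether libraries of a group came from separate animals, so p-values speak of the spread among the libraries, which may be technical. In the matrix of mitochondria, ClpP degrades proteins that the unfoldase ClpX feeds into it, and the comparisons address what their loss does to spermatogenesis and meiosis.

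In meiotic prophase each chromosome first folds along a protein axis built on cohesin. Programmed DNA breaks are then made on the loops of that axis, strand exchange proteins use them to search for the homologous chromosome, and a zipper of central region proteins, the synaptonemal complex, closes between the paired axes. Some breaks mature into crossovers under the control of meiosis-specific mismatch repair proteins and ligases, while telomeres tethered to the nuclear envelope move the chromosomes. Most of these genes are transcribed from meiotic entry into pachytene, the stage at which synapsis is complete.

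The libraries held 14334436 to 17021685 reads assigned to genes. Clpp stood at 5.16, 6.15 and 3.69 FPKM (fragments scaled to gene length and library depth) in ClpP cKO, against 9.36, 8.46 and 9.36 FPKM in Control, and Clpx at 15.6, 11.3 and 13.2 FPKM in ClpX cKO, against 59.3, 55.7 and 54.7 FPKM in Control, so each targeted gene was lower in its own knockout. Clpx was also lower in ClpP cKO, at 40.3, 36.2 and 36.0 FPKM, and Clpp was higher in ClpX cKO, at 12.8, 12.5 and 14.1 FPKM. Germ cell markers were abundant, with Ddx4 at 176 to 185 FPKM in ClpP cKO, 156 to 178 FPKM in ClpX cKO and 195 to 212 FPKM in Control and Dazl at 74.6 to 85.6, 83.0 to 103.6 and 52.3 to 57.2 FPKM in the same groups. Transcripts of other cells were present as well. Prm1 of elongating spermatids stood at 873.7 to 1097 FPKM in ClpP cKO, 291 to 395 FPKM in ClpX cKO and 1435 to 4002 FPKM in Control, and Sox9 of Sertoli cells was at 8.18 to 9.42, 10.6 to 14.8 and 5.24 to 5.79 FPKM in the same groups. Control 3 and ClpX cKO 1 stood apart from the other libraries of their groups. Control 3 had the lowest Prm1 and Tnp2 of the controls and ClpX cKO 1 the highest Prm1 and Tnp2 of its group.

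More synapsis and recombination genes rose than fell in both knockouts. In ClpP cKO 16 rose and 5 fell of the 39 tested, and in ClpX cKO 17 rose and 9 fell, where a gene is called to have risen or fallen at a limma p under 0.05 after Benjamini-Hochberg adjustment over all genes tested. The median change on the log2(FPKM + 1) scale was 0.23 in ClpP cKO and 0.23 in ClpX cKO, while the medians over all 17266 genes tested were 0.01 and -0.00077. Over the 12827 protein-coding genes among them the medians were 0.077 and 0.107. The members that rose in both were Tex12, Hormad1, Hormad2, Prdm9, Zcwpw1, Dmc1, Brca2, Meiob, Spata22, Msh4, Msh5, Tex11, Ythdc2 and Terb2, those that fell in both were Syce1, Syce3, Stag3, Rec8 and M1ap, and no member was called in opposite directions. Both comparisons use the same 3 Control libraries. The called share of members was 53.8% in ClpP cKO and 66.7% in ClpX cKO, against 44.7% and 65.6% of all genes tested and 49.3% and 70.6% of protein-coding genes, so the number of members that changed was near the background. All genes split into 20.7% higher and 24.0% lower in ClpP cKO and into 32.1% higher and 33.5% lower in ClpX cKO. Of the protein-coding genes, 3306 rose and 3017 fell in ClpP cKO, and 5138 rose and 3912 fell in ClpX cKO, so rises outnumbered falls there too. The 3 libraries of ClpP cKO lay wholly apart from those of Control for 31 of 39 members, 22 above and 9 below, and in 61.7% of all genes tested. In ClpX cKO they lay apart for 27 members, 17 above and 10 below, and in 69.8% of all genes. Between the knockouts the libraries lay apart for 13 of 39 members, with ClpX cKO above in 4 and below in 9, and in 29.9% of all genes.

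Without Control 3 and ClpX cKO 1 the counts were 21 higher and 6 lower in ClpP cKO and 21 higher and 8 lower in ClpX cKO. Over all 17266 genes tested, 8143 were then called in ClpP cKO and 11449 in ClpX cKO. Leaving out ClpP cKO 2, ClpP cKO 3 or Control 1 in turn lowered the count in ClpP cKO to 14 in each case. Calls over all genes in ClpP cKO also varied, from 3617 to 8729 in the fits without 1 library. The scale between libraries mattered for the genes that fell. Quantile normalization gave 22 higher and 1 lower in ClpP cKO and 22 higher and 3 lower in ClpX cKO. Scaling each library to its own total of gene reads gave 26 higher and 1 lower in ClpP cKO and 26 higher and 4 lower in ClpX cKO, and it moved the median of all genes to 0.16 and 0.18. The split of all called genes moved the same way. The higher ones made up 46.3% of calls in ClpP cKO and 49.0% in ClpX cKO on the deposited scale, 60.2% and 57.4% after quantile normalization and 71.4% and 63.3% under own totals. Own totals ended the calls of Syce1, Syce3, Stag3 and Rec8 in ClpP cKO (adjusted p = 0.11 to 0.31) and of Syce3, Smc1b, Stag3, Psmc3ip and Hsf2bp in ClpX cKO (0.054 to 0.95). Limma voom on recovered reads ended those of Syce3, Hormad1, Spata22 and Rnf212 in ClpP cKO (adjusted p = 0.053 to 0.12) and of Sycp3, Brca2, Hsf2bp, Spata22 and Msh4 in ClpX cKO (0.061 to 0.12). Of the genes called higher, 10 of 16 in ClpP cKO and 11 of 17 in ClpX cKO held under these 3 alternatives and in each of 9 fits without 1 library. Of those called lower, M1ap in ClpP cKO and Syce2, Rec8 and M1ap in ClpX cKO did so.

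**Figure D1:**
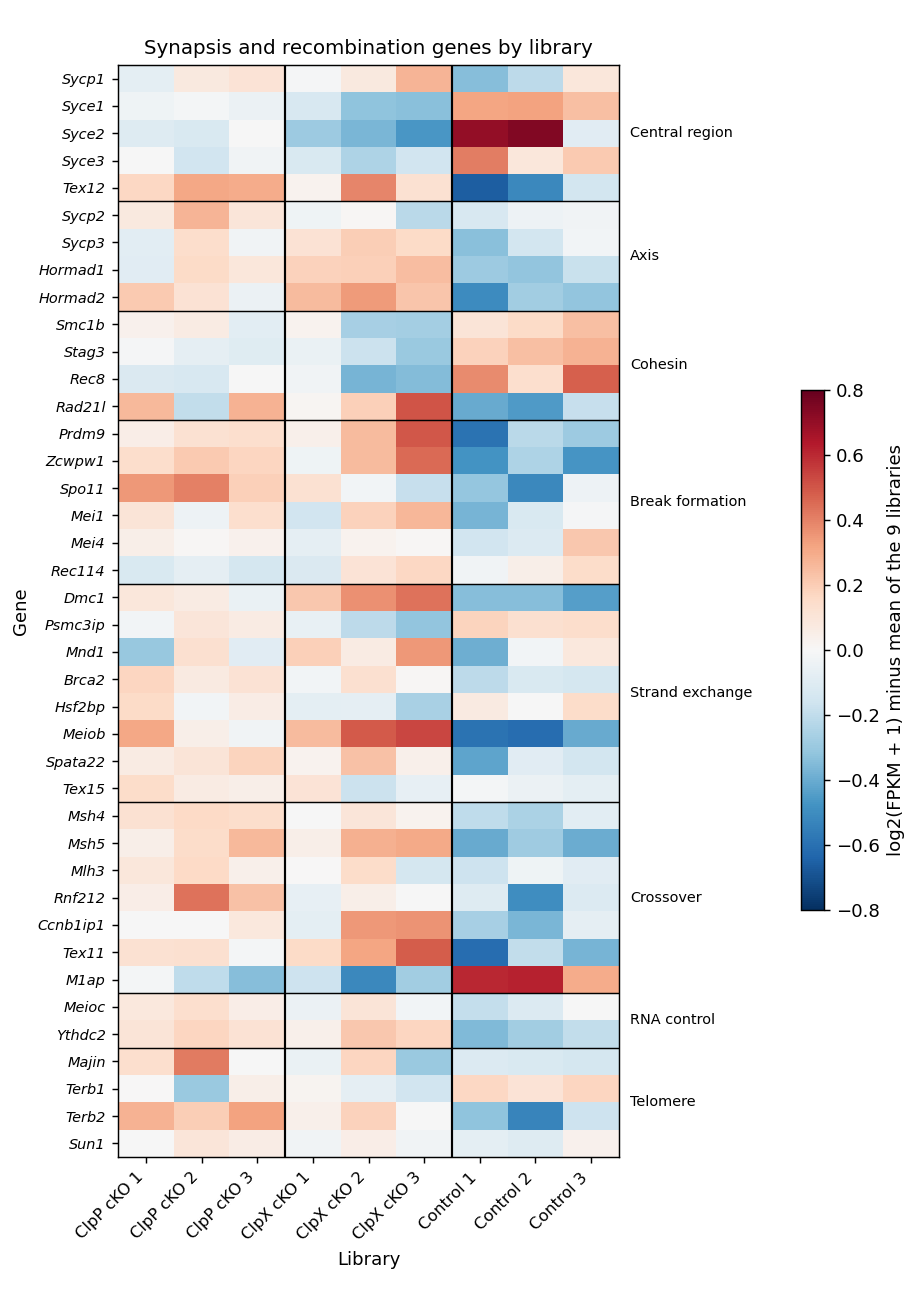
The 40 members by role (rows) in the 9 libraries (columns: ClpP cKO, ClpX cKO, Control), coloured by log2(FPKM + 1) minus the gene's mean over the 9 libraries, red above it and blue below it. Tex12, Hormad2, Zcwpw1, Dmc1, Meiob and Msh5 are redder in the knockouts, and Syce2, Rec8 and M1ap are bluer there; Control 3 stands nearer to the knockouts than Control 1 and 2 for Syce2, Tex12 and M1ap.

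Markers of other cells moved with the groups. Summed FPKM of 12 Sertoli cell markers was 918 to 1039 in ClpP cKO, 1152 to 1636 in ClpX cKO and 653 to 676 in Control, and all 12 rose in both knockouts. The 12 listed markers of spermatogonia summed to 78.2 to 93.7, 94.3 to 126 and 59.9 to 68.2 FPKM. Of the 11 tested, 7 rose in ClpP cKO and 9 rose and 1 fell in ClpX cKO. For 12 markers of pachytene and diplotene spermatocytes the sums were 3711 to 3826, 2793 to 3623 and 4723 to 4946 FPKM, and 9 and 11 of them fell. Round spermatid markers summed to 485 to 640, 311 to 555 and 950.4 to 1045 FPKM, with 11 and 12 of 12 lower, and elongating spermatid markers to 4720.3 to 5621, 1685 to 2593 and 8192 to 17993 FPKM, with all 12 lower in both. The 8 listed immune markers summed to 46.5 to 68.4, 65.9 to 80.9 and 35.1 to 41.7 FPKM, and 3 and 6 of the 7 tested rose. The ranges of Leydig cell markers, 404 to 587 and 396 to 621 against 239 to 432 FPKM, and of stromal markers, 82.1 to 104.6 and 94.3 to 148 against 61.1 to 94.5 FPKM, overlapped Control. The 6 general germ cell markers summed to 967 to 1019, 887 to 963 and 1070 to 1118 FPKM in the same order of groups, without overlap with Control, and 3 rose and 1 fell in ClpP cKO and 3 rose and 2 fell in ClpX cKO. No listed marker was at 0 in any library. The part of these shifts in the changes of the members was not tested, and in bulk libraries fewer cells of a type and less RNA per cell cannot be told apart.

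A promoter letter pattern that the choice of members had not used was present in some of them. RefSeq promoters of GRCm38.p6, 250 bases before to 50 after a gene's start, matched 33 of 40 members, and Spo11, Meiob, Tex15, Tex11, Ythdc2, Majin and Terb2 had none. The core of the E2F site, GCGGGAA on either strand, was present in 14 of 33 members (42.4%), in 9.61% of 10094 tested protein-coding genes and in 5.29% of all 27025 genes with a promoter. E2F factors drive genes of DNA replication and include E2F6, a repressor of germ cell genes in somatic cells. The median GC content was 60.0% in the members and 60.3% in the tested protein-coding genes. Less common were CNCCTCAG, the motif of the meiotic activator STRA8, in 24.2% of members, 11.3% of tested protein-coding genes and 9.12% of all genes, and CACGTG, the E-box bound by MAX and MGA, in 24.2%, 11.6% and 8.09%. CAGTTG, the MYB motif, was in 9.09%, 13.1% and 15.4%, and TGACGTCA, the CRE, in 3.03%, 3.55% and 2.03%. All motifs were searched on both strands, and none contains another. A letter match is not a binding site.

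Promoters with the E2F letters belonged to members that rose and to members that fell. Of the 14 such members, 7 rose and 1 fell in ClpP cKO and 7 rose and 4 fell in ClpX cKO. Of the 18 tested members with a promoter but without the letters, 4 rose and 4 fell in ClpP cKO and 6 rose and 5 fell in ClpX cKO. Sequences are given for 2 members that rose in both knockouts, Msh5 and Hormad1, and 2 that fell in at least ClpX cKO, Stag3 and Syce2, each 5′ to 3′ on the gene's strand. Capitals mark GCGGGAA or its reverse complement and CACGTG. The start is that of the RefSeq promoter entry, which for Msh5 and Stag3 lies inside the gene position given in this report. For Syce2 it lies inside the gene as well (chr8:84872111-84888221). For Stag3 the whole window lies inside the gene (chr5:138280240-138312393). In Msh5 (chr17:35046573-35046872, minus strand) the E2F letters begin 65 bases before the start. In Hormad1 (chr3:95559427-95559726, plus strand, 1 of 2 promoters listed) they begin 95 bases before it and are followed by 2 E-boxes. In Stag3 (chr5:138280259-138280558, plus strand) the E2F letters lie on the opposite strand at the start itself, 3 bases before it, and in Syce2 (chr8:84872008-84872307, plus strand, 1 of 2 promoters listed) an E-box stands ahead of them.
Msh5: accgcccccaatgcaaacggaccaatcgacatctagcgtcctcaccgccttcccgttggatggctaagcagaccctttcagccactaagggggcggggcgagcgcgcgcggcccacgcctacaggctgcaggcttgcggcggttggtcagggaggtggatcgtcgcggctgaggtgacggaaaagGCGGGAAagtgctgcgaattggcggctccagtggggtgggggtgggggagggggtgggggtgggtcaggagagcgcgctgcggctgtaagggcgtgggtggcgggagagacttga
Hormad1: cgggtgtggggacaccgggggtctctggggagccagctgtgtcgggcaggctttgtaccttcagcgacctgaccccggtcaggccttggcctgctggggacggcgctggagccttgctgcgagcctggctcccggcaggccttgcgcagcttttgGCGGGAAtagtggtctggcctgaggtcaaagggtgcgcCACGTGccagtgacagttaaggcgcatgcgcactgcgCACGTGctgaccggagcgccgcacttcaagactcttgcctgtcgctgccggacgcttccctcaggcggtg
Stag3: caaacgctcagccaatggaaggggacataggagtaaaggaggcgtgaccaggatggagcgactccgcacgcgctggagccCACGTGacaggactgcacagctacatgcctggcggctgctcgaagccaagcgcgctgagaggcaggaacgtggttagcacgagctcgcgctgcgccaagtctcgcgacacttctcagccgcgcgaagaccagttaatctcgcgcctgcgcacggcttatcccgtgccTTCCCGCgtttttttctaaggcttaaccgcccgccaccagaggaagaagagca
Syce2: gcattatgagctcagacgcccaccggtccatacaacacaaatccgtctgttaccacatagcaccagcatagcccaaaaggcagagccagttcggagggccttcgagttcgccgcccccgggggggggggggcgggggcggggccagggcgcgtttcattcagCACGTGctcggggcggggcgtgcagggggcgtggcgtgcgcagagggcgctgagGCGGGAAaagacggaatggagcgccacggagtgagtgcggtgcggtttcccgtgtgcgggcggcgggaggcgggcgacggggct

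Within the synaptonemal complex's central region, Tex12 rose in both knockouts and Syce1 and Syce3 fell in both. Tex12 encodes a protein that assembles with SYCE2 into the fibres of the central element. It stood at 17.5, 19.4 and 19.1 FPKM in ClpP cKO, at 15.8, 20.6 and 16.9 FPKM in ClpX cKO and at 9.42, 10.5 and 13.9 FPKM in Control. Every knockout library was above every Control library, with Control 3 the nearest. The change was 0.70 ± 0.14 in ClpP cKO and 0.62 ± 0.14 in ClpX cKO on the log2(FPKM + 1) scale (SE; limma adjusted p = 0.01 and 0.0047), folds of 1.62 and 1.54. Its partner Syce2 stood at 27.5, 27.2 and 29.6 FPKM in ClpP cKO, at 24.0, 22.8 and 21.2 FPKM in ClpX cKO and at 48.9, 50.2 and 27.8 FPKM in Control. Control 3 lay within the range of ClpP cKO and above ClpX cKO. Syce2 fell by 0.83 ± 0.20 in ClpX cKO (adjusted p = 0.0058). In ClpP cKO its change of -0.53 ± 0.20 was not called (adjusted p = 0.055), and without Control 3 it was -0.80 and was called (adjusted p = 0.0043).

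Syce1 (ENSMUSG00000025480, chr7:140777229-140787852), which links the transverse filaments to the central element, was the member with the highest level in Control. Its level was 157, 159.8 and 156 FPKM in ClpP cKO, 148, 129 and 128 FPKM in ClpX cKO and 201, 202 and 191 FPKM in Control. The 3 groups did not overlap, and ClpX cKO was the lowest. Syce1 fell by 0.33 ± 0.07 in ClpP cKO and by 0.55 ± 0.07 in ClpX cKO (adjusted p = 0.013 and 0.00053), but under quantile normalization the changes were 0.11 and 0.0088, the opposite sign and not called. Syce3, another central element gene, stood at 57.6, 52.0 and 56.7 FPKM in ClpP cKO, at 53.0, 48.7 and 52.0 FPKM in ClpX cKO and at 77.0, 61.7 and 67.0 FPKM in Control, with both knockouts below Control. It fell by 0.30 ± 0.09 and 0.41 ± 0.09 (adjusted p = 0.028 and 0.004), and quantile normalization turned these to 0.02 and 0.03. The call of Syce3 in ClpP cKO was lost without ClpP cKO 2, ClpP cKO 3, Control 1 or Control 3 (adjusted p = 0.053 to 0.099). Sycp1, the transverse filament itself, was not called, with means of 77.8 ± 5.3 FPKM in ClpP cKO, 82.1 ± 8.3 in ClpX cKO and 68.5 ± 11 in Control (SD, n = 3 each) and changes of 0.19 ± 0.12 and 0.27 ± 0.12 (adjusted p = 0.22 and 0.084). Without Control 3 its change in ClpX cKO was 0.39 and was called (adjusted p = 0.015). A processed copy, Sycp1-ps1, could take reads from Sycp1, and it was listed at 0.609 to 1.19 FPKM in ClpP cKO, 0.599 to 1.09 in ClpX cKO and 1.82 to 2.62 in Control.

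The axis genes that rose were Hormad1 and Hormad2 in both knockouts and Sycp3 in ClpX cKO. HORMAD1 and HORMAD2 coat unsynapsed axes and leave them as synapsis proceeds. Hormad1 (ENSMUSG00000028109, chr3:95559677-95587671) stood at 63.2, 75.1 and 71.9 FPKM in ClpP cKO, at 76.9, 77.0 and 80.3 FPKM in ClpX cKO and at 55.0, 54.0 and 59.4 FPKM in Control, and Hormad2 at 13.9, 12.9 and 11.4, at 14.3, 15.3 and 14.0 and at 8.07, 9.60 and 9.31 FPKM in the same groups. For both genes all 6 knockout libraries were above all 3 Control libraries, and ClpX cKO was wholly above ClpP cKO. Hormad1 changed by 0.31 ± 0.08 in ClpP cKO and 0.47 ± 0.08 in ClpX cKO (adjusted p = 0.016 and 0.0011), and Hormad2 by 0.46 ± 0.09 and 0.64 ± 0.09 (adjusted p = 0.0097 and 0.00062). The call of Hormad1 in ClpP cKO was lost without ClpP cKO 2, ClpP cKO 3, Control 1 or Control 2 (adjusted p = 0.053 to 0.06).

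Sycp3, the filament-forming core of the lateral element, stood at 69.4, 81.3 and 72.1 FPKM in ClpP cKO, at 80.0, 84.5 and 82.0 FPKM in ClpX cKO and at 58.3, 66.5 and 72.6 FPKM in Control. ClpX cKO lay above Control, while ClpP cKO overlapped both. The change in ClpX cKO was 0.32 ± 0.09 (adjusted p = 0.015; 0.054 without Control 1), and that in ClpP cKO was 0.17 ± 0.09 (adjusted p = 0.15). Exons of Chpt1 on the opposite strand share 52.2% of the exon bases of Sycp3, and the labels do not say whether reads were counted by strand. Chpt1 averaged 6.64 FPKM in ClpP cKO, 6.01 in ClpX cKO and 9.08 in Control, so it moved the other way. Sycp2, which binds SYCP3 in the lateral element, was not called, with changes of 0.21 ± 0.08 in ClpP cKO and -0.02 ± 0.08 in ClpX cKO (adjusted p = 0.069 and 0.87); in ClpX cKO quantile normalization gave 0.49 and a call (adjusted p = 0.003), and without ClpX cKO 3 Sycp2 was called in ClpP cKO (adjusted p = 0.047).

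Among the cohesin genes, Stag3 and Rec8 fell in both knockouts and Smc1b in ClpX cKO, whereas Rad21l rose in ClpX cKO. Stag3 (ENSMUSG00000036928, chr5:138280240-138312393), a subunit of all meiosis-specific cohesin complexes, stood at 94.5, 90.6 and 88.7 FPKM in ClpP cKO, at 91.6, 84.3 and 77.1 FPKM in ClpX cKO and at 108, 113 and 115 FPKM in Control. Rec8, a kleisin that closes the cohesin ring and carries sister chromatid cohesion, stood at 19.3, 19.2 and 20.9, at 20.6, 16.0 and 16.3 and at 27.6, 23.2 and 29.7 FPKM in the same groups. Both genes were below Control in all 6 knockout libraries. Stag3 fell by 0.29 ± 0.08 in ClpP cKO and by 0.41 ± 0.08 in ClpX cKO (adjusted p = 0.017 and 0.0017), but quantile normalization gave 0.10 and 0.11. Rec8 fell by 0.41 ± 0.12 and 0.58 ± 0.12 (adjusted p = 0.024 and 0.0028), and it kept its sign under every scaling run, although quantile normalization and own totals ended its call in ClpP cKO (adjusted p = 0.11 and 0.14). In ClpP cKO the call of Stag3 was lost without ClpP cKO 2, ClpP cKO 3 or Control 2 (adjusted p = 0.05 to 0.061) and that of Rec8 without any 1 ClpP cKO library, Control 1 or Control 3 (adjusted p = 0.051 to 0.075).

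Smc1b, the meiotic form of a core ring subunit, stood at 62.4, 63.9 and 57.5 FPKM in ClpP cKO, at 62.1, 50.5 and 50.4 FPKM in ClpX cKO and at 65.5, 68.0 and 72.2 FPKM in Control. It was below Control in all 6 knockout libraries and fell by 0.33 ± 0.09 in ClpX cKO (adjusted p = 0.012), with a change of 0.10 under quantile normalization. In ClpP cKO its change of -0.16 ± 0.09 was not called (adjusted p = 0.19). Rad21l, the kleisin that acts early in prophase, was at low levels of 5.10, 3.45 and 5.19 FPKM in ClpP cKO, 4.15, 4.82 and 6.22 FPKM in ClpX cKO and 2.86, 2.72 and 3.49 FPKM in Control. ClpP cKO 2 lay within the range of Control, and the ClpX cKO libraries did not. Rad21l changed by 0.58 ± 0.17 in ClpX cKO (adjusted p = 0.014; 0.051 without ClpX cKO 3). In ClpP cKO the change was 0.46 ± 0.17 (adjusted p = 0.051), and it was called without ClpP cKO 2, ClpX cKO 1 or ClpX cKO 3 (adjusted p = 0.04 to 0.042).

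Of the genes of break formation, Prdm9 and Zcwpw1 rose in both knockouts and Spo11 rose in ClpP cKO. PRDM9 is the histone methyltransferase that marks recombination hotspots, and ZCWPW1 reads the marks it leaves. Prdm9 (ENSMUSG00000051977, chr17:15543079-15564354) stood at 3.58, 3.80 and 3.86 FPKM in ClpP cKO, at 3.55, 4.27 and 5.22 FPKM in ClpX cKO and at 1.93, 2.81 and 2.61 FPKM in Control. Zcwpw1 stood at 8.95, 9.41 and 9.15, at 7.82, 9.73 and 11.4 and at 5.47, 6.61 and 5.51 FPKM in the same groups. All knockout libraries were above Control for both genes, and within ClpX cKO library 1 was the lowest and library 3 the highest. Prdm9 changed by 0.47 ± 0.14 in ClpP cKO and 0.63 ± 0.14 in ClpX cKO (adjusted p = 0.025 and 0.0038), and Zcwpw1 by 0.57 ± 0.12 and 0.62 ± 0.12 (adjusted p = 0.011 and 0.0024). The call of Prdm9 in ClpP cKO was lost without ClpP cKO 2, ClpP cKO 3 or Control 1 (adjusted p = 0.073 to 0.081).

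Spo11, the topoisomerase-like enzyme that cuts the DNA, stood at 28.3, 29.5 and 25.3 FPKM in ClpP cKO, at 24.0, 21.7 and 19.3 FPKM in ClpX cKO and at 17.6, 15.1 and 21.4 FPKM in Control. ClpP cKO was above both other groups, and ClpX cKO overlapped Control through Control 3. The change was 0.60 ± 0.13 in ClpP cKO (adjusted p = 0.011) and 0.26 ± 0.13 in ClpX cKO (adjusted p = 0.11; called without Control 3, at 0.38 and adjusted p = 0.022). Mei1 and Rec114, which are needed for break formation, were not called. Mei1 changed by 0.23 ± 0.13 and 0.27 ± 0.13 (adjusted p = 0.18 and 0.11; in ClpX cKO it was called without ClpX cKO 1, adjusted p = 0.019), and Rec114 by -0.17 ± 0.10 and -0.0022 ± 0.10 (adjusted p = 0.19 and 0.99). Nptn on the opposite strand shares 26.9% of the exon bases of Rec114. It averaged 7.78 FPKM in ClpP cKO, 8.85 in ClpX cKO and 6.66 in Control, above the 2.47, 2.91 and 2.90 FPKM of Rec114. Whether reads of Nptn entered the values of Rec114 was not tested. Mei4, the partner of REC114, had 11 to 30 reads per library and a mean of 0.348 ± 0.019 FPKM in ClpP cKO, 0.311 ± 0.046 in ClpX cKO and 0.314 ± 0.19 in Control (SD, n = 3 each), where Control 3 was at 0.534. It fell under the filter on low values. In the fit with no filter Mei4 was not called, with changes of 0.05 ± 0.10 and 0.01 ± 0.10 (limma adjusted p = 0.82 and 1).

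**Figure D2:**
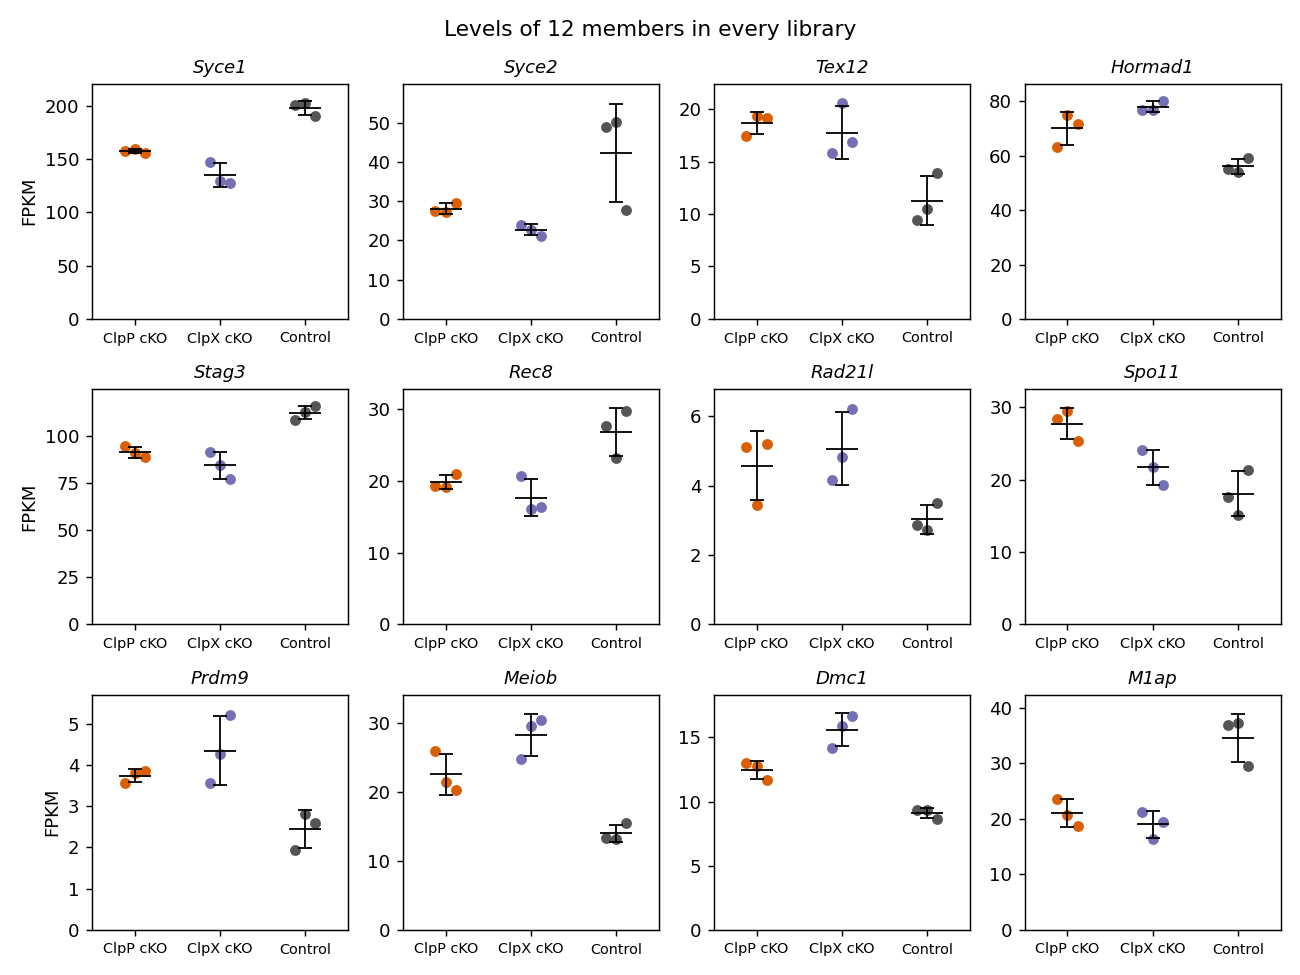
FPKM of 12 members (1 panel each) in every library of ClpP cKO, ClpX cKO and Control; points are libraries, the long bar is the mean and the whiskers are ± 1 SD (n = 3). Meiob, Dmc1 and Tex12 lie above Control in both knockouts and M1ap below it, whereas Syce2 in Control 3, at 27.8 FPKM, lies among the ClpP cKO values; the lower levels of Syce1 and Stag3 take the opposite sign under quantile normalization.

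The strand exchange genes Dmc1, Meiob, Brca2 and Spata22 rose in both knockouts, while Psmc3ip and Hsf2bp fell in ClpX cKO. Meiob (ENSMUSG00000024155, chr17:24804382-24839787), whose product binds single-stranded DNA at breaks, had the largest change of the 39 tested members over the 9 libraries, in ClpX cKO, although without Control 3 its 1.03 was exceeded in size by the -1.10 of Syce2. It stood at 26.0, 21.4 and 20.3 FPKM in ClpP cKO, at 24.9, 29.6 and 30.5 FPKM in ClpX cKO and at 13.4, 13.2 and 15.5 FPKM in Control. The knockouts were above Control in every library. Its change was 0.65 ± 0.11 in ClpP cKO and 0.96 ± 0.11 in ClpX cKO (adjusted p = 0.0086 and 0.00046), folds of 1.56 and 1.95. Spata22, the partner of MEIOB, averaged 6.48 ± 0.29 FPKM in ClpP cKO, 6.43 ± 0.60 in ClpX cKO and 4.97 ± 0.71 in Control (SD, n = 3 each). It changed by 0.33 ± 0.10 and 0.32 ± 0.10 (adjusted p = 0.031 and 0.023), calls that were lost without any 1 ClpP cKO library or Control 1 in ClpP cKO (adjusted p = 0.052 to 0.097) and without ClpX cKO 2 or Control 1 in ClpX cKO (0.076 to 0.084). The annotation gives a read-through gene, Gm49340, over 80.5% of its exon bases, listed at a mean of at most 0.030 FPKM.

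Dmc1 (ENSMUSG00000022429, chr15:79561497-79605109), the meiosis-specific recombinase, stood at 13.0, 12.7 and 11.6 FPKM in ClpP cKO, at 14.2, 15.9 and 16.7 FPKM in ClpX cKO and at 9.35, 9.38 and 8.68 FPKM in Control. The 3 groups did not overlap, with ClpX cKO the highest. Dmc1 changed by 0.41 ± 0.08 in ClpP cKO and 0.71 ± 0.08 in ClpX cKO (adjusted p = 0.0091 and 0.00045). Psmc3ip encodes HOP2, which works with MND1 to stimulate DMC1. Its levels were 46.4, 50.4 and 49.4 FPKM in ClpP cKO, 45.2, 40.6 and 37.7 FPKM in ClpX cKO and 53.5, 51.7 and 52.0 FPKM in Control, in 3 groups that did not overlap. Psmc3ip fell by 0.35 ± 0.08 in ClpX cKO (adjusted p = 0.0039), against 0.07 under quantile normalization, and was not called in ClpP cKO (-0.10 ± 0.08, adjusted p = 0.28). Mlx on the opposite strand shares 21.2% of the exon bases of Psmc3ip and averaged 4.14 FPKM in ClpP cKO, 5.11 in ClpX cKO and 3.52 in Control.

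Mnd1 overlapped Control in both knockouts, with changes of 0.02 ± 0.15 and 0.31 ± 0.15 (adjusted p = 0.93 and 0.1). Brca2, which loads recombinases on DNA, changed by 0.28 ± 0.07 in ClpP cKO and 0.20 ± 0.07 in ClpX cKO (adjusted p = 0.014 and 0.029). Without Control 1 Brca2 was not called in ClpP cKO (adjusted p = 0.052), nor in ClpX cKO without ClpX cKO 2 or any 1 Control library (0.052 to 0.1). Hsf2bp, which binds BRCA2, was unlike its partner, with changes of -0.0088 ± 0.08 in ClpP cKO (adjusted p = 0.93) and -0.21 ± 0.08 in ClpX cKO (adjusted p = 0.044). The call of Hsf2bp was lost in 6 of 9 fits without 1 library (without ClpP cKO 2 or 3, ClpX cKO 2 or 3, or Control 1 or 3; adjusted p = 0.051 to 0.14), and its sign turned to 0.0060 when libraries were scaled to their own totals. Tex15, which is needed for recombinase loading, was not called, at 0.13 ± 0.08 and 0.0038 ± 0.08 (adjusted p = 0.19 and 0.97).

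In the crossover group, Msh4, Msh5 and Tex11 rose in both knockouts and M1ap fell in both. MSH4 and MSH5 form the clamp that stabilises recombination intermediates. Msh5 (ENSMUSG00000007035, chr17:35028605-35046745) stood at 8.49, 9.20 and 10.004 FPKM in ClpP cKO, at 8.50, 10.2 and 10.4 FPKM in ClpX cKO and at 5.98, 6.56 and 5.99 FPKM in Control, with all knockout libraries above Control. It changed by 0.51 ± 0.09 in ClpP cKO and 0.57 ± 0.09 in ClpX cKO (adjusted p = 0.0087 and 0.001). Msh4 averaged 5.43 ± 0.08 FPKM in ClpP cKO, 5.01 ± 0.20 in ClpX cKO and 4.16 ± 0.31 in Control, and changed by 0.32 ± 0.07 and 0.22 ± 0.07 (adjusted p = 0.012 and 0.024). Without ClpX cKO 2, Control 1 or Control 2, Msh4 was not called in ClpX cKO (adjusted p = 0.07 to 0.087).

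Tex11 (ENSMUSG00000009670, chrX:100838648-101059667), an X-linked crossover factor, stood at 7.74, 7.77 and 6.95 FPKM in ClpP cKO, at 7.93, 8.99 and 10.2 FPKM in ClpX cKO and at 4.28, 5.997 and 5.22 FPKM in Control. The 3 groups did not overlap. It changed by 0.47 ± 0.12 in ClpP cKO (adjusted p = 0.018; 0.056 and 0.061 without ClpP cKO 2 or Control 1) and by 0.71 ± 0.12 in ClpX cKO (adjusted p = 0.0013). M1ap (ENSMUSG00000030041, chr6:82946902-83030309), which is needed for crossover maturation, stood at 23.7, 20.7 and 18.7 FPKM in ClpP cKO, at 21.2, 16.4 and 19.5 FPKM in ClpX cKO and at 36.8, 37.3 and 29.6 FPKM in Control. Both knockouts were below Control, of which Control 3 was the lowest. M1ap fell by 0.69 ± 0.13 and 0.83 ± 0.13 (adjusted p = 0.0089 and 0.00087), and both calls held under every scaling and in each fit without 1 library.

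The ligase genes of crossover control differed in where they were called. Rnf212, which stabilises recombination factors at future crossovers, averaged 6.28 ± 0.98 FPKM in ClpP cKO, 5.11 ± 0.24 in ClpX cKO and 4.24 ± 0.78 in Control, with changes of 0.48 ± 0.13 (adjusted p = 0.022; 0.06 to 0.078 without ClpP cKO 2, ClpP cKO 3 or Control 2) and 0.23 ± 0.13 (adjusted p = 0.15). Ccnb1ip1, which encodes HEI10 and opposes RNF212, averaged 6.82 ± 0.27, 7.97 ± 1.5 and 5.55 ± 0.69 FPKM in the same groups. It changed by 0.26 ± 0.13 in ClpP cKO (adjusted p = 0.13; 0.035 without ClpX cKO 1) and by 0.44 ± 0.13 in ClpX cKO (adjusted p = 0.015; 0.054 to 0.056 without ClpX cKO 2, ClpX cKO 3 or Control 2). For neither ligase was a difference between the knockouts called, with adjusted p-values of 0.26 and 0.37. Mlh3, the nuclease subunit that resolves crossovers, was not called (0.19 ± 0.09 and 0.10 ± 0.09, adjusted p = 0.096 and 0.33).

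YTHDC2 and MEIOC form the RNA-binding complex that carries germ cells from mitosis into meiotic prophase. Ythdc2 stood at 9.22, 9.72 and 9.30 FPKM in ClpP cKO, at 8.77, 10.1 and 9.72 FPKM in ClpX cKO and at 6.43, 6.86 and 7.31 FPKM in Control. All knockout libraries were above Control, and the change was 0.41 ± 0.07 in ClpP cKO and 0.42 ± 0.07 in ClpX cKO (adjusted p = 0.0088 and 0.0015). Meioc was more abundant, at 54.5 ± 1.6, 51.7 ± 3.0 and 47.8 ± 3.2 FPKM in the same groups, and was not called (0.19 ± 0.07 and 0.11 ± 0.07, adjusted p = 0.06 and 0.2). In ClpP cKO, Meioc was called without ClpX cKO 1 or Control 3 (adjusted p = 0.043 to 0.044).

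Of the telomere genes only Terb2 passed the test, in both knockouts. TERB1, TERB2 and MAJIN join telomeres to the inner nuclear membrane, where SUN1 couples them to the cytoskeleton. Terb2 stood at 6.05, 5.68 and 6.29 FPKM in ClpP cKO, at 4.995, 5.62 and 4.82 FPKM in ClpX cKO and at 3.67, 3.03 and 4.20 FPKM in Control. The 3 groups did not overlap, and ClpP cKO was the highest. It changed by 0.60 ± 0.10 in ClpP cKO and 0.41 ± 0.10 in ClpX cKO (adjusted p = 0.0086 and 0.0079). Terb1 changed by -0.23 ± 0.10 and -0.22 ± 0.10 (adjusted p = 0.081 and 0.079; in ClpX cKO it was called without ClpP cKO 2, adjusted p = 0.028), Majin by 0.30 ± 0.13 and 0.07 ± 0.13 (adjusted p = 0.094 and 0.69) and Sun1 by 0.10 ± 0.06 and 0.05 ± 0.06 (adjusted p = 0.21 and 0.52).

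**Figure D3:**
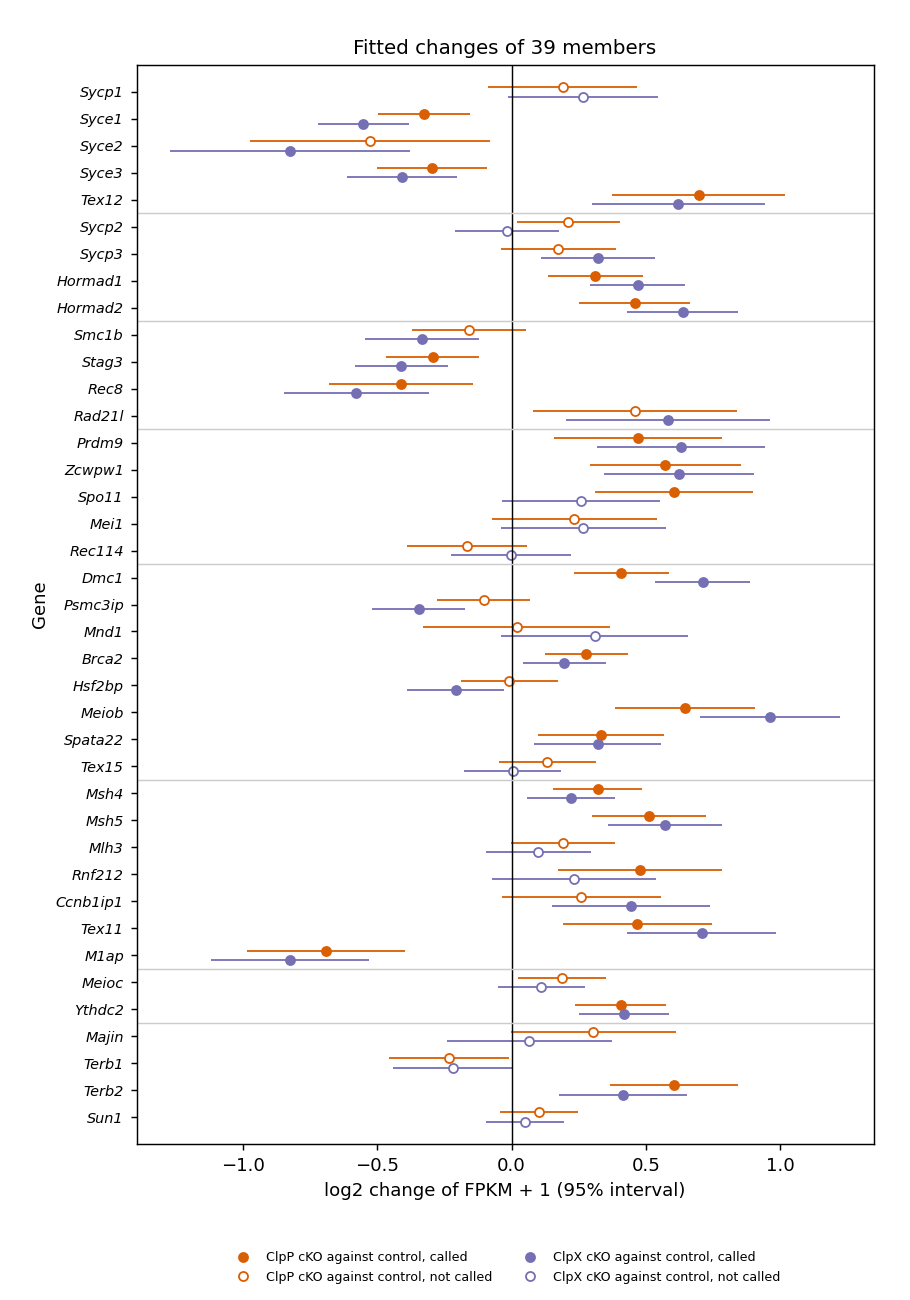
Fitted change on the log2(FPKM + 1) scale of the 39 tested members, ClpP cKO against Control (orange) and ClpX cKO against Control (purple), with 95% intervals; filled points passed an adjusted p under 0.05. Meiob in ClpX cKO has the largest increase, 0.96, and M1ap and Syce2 in ClpX cKO the largest decreases, -0.83 each; under quantile normalization the decreases of Syce1, Syce3 and Stag3 in both knockouts and of Smc1b and Psmc3ip in ClpX cKO turn to small increases, and under scaling to own totals that of Hsf2bp does.

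The summed level of the 40 members was 1159 ± 24.6 FPKM in ClpP cKO, 1102 ± 19.3 in ClpX cKO and 1162 ± 21.2 in Control (SD, n = 3 each), and all 3 ClpX cKO libraries lay below Control. Scaled to own totals of gene reads the sums were 1211 ± 28.8, 1184 ± 14.3 and 1069 ± 50.6, with both knockouts above Control, so the direction of the sum rests on the scale between libraries. Shares and ratios within a library do not depend on a single factor per library. Quantile normalization can change them, and they were not computed under it. Of the sum, central region genes made up 29.2% ± 0.76 in ClpP cKO, 28.0% ± 0.72 in ClpX cKO and 33.5% ± 1.3 in Control. Syce1 alone averaged 13.6%, 12.2% and 17.1% in the same groups, Syce2 2.43%, 2.06% and 3.65%, and Syce3 4.79%, 4.65% and 5.91%. Sycp1 averaged higher in the knockouts but overlapped Control, at 6.71%, 7.47% and 5.89%, and Tex12 lay above Control, at 1.61%, 1.61% and 0.967%. Cohesin genes made up 15.3% ± 0.50, 14.6% ± 1.1 and 18.1% ± 0.45. Among them Smc1b, Stag3 and Rec8 averaged lower in the knockouts and Rad21l higher, at 0.396%, 0.461% and 0.260%. Axis genes took a larger share, 22.4% ± 1.2, 23.8% ± 0.55 and 18.9% ± 0.79, and so did break formation genes, at 4.18% ± 0.12, 4.003% ± 0.21 and 2.90% ± 0.26. Strand exchange genes were above Control in share, at 12.7% ± 0.39, 13.1% ± 0.092 and 11.5% ± 0.079, as were Meioc with Ythdc2, at 5.52% ± 0.058, 5.55% ± 0.34 and 4.70% ± 0.23, and telomere genes, at 4.90% ± 0.020, 4.77% ± 0.30 and 4.42% ± 0.12. Crossover genes made up 5.79% ± 0.14, 5.999% ± 0.31 and 5.96% ± 0.36, which overlapped (two-sided exact permutation p = 0.5 and 0.9). The other 7 shares did not overlap between either knockout and Control, each with the smallest exact p that 3 against 3 libraries allow, 0.1. The shares of a library add up to the whole sum, so they are not independent of each other. Shares of other gene sets were not computed, and 61.7% and 69.8% of all single genes tested lay apart from Control in ClpP cKO and ClpX cKO.

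**Figure D4:**
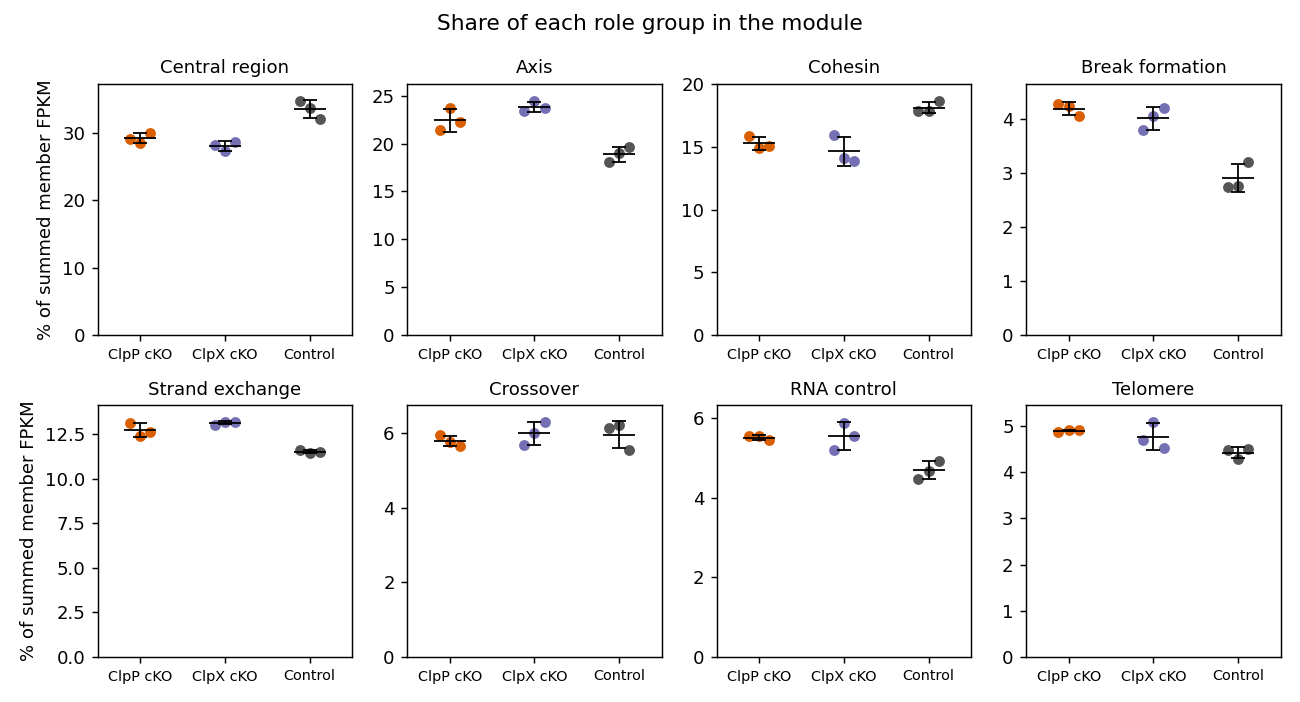
Share of each role group in the summed FPKM of the 40 members (%, 1 panel per group) in ClpP cKO, ClpX cKO and Control; points are libraries, long bars means and whiskers ± 1 SD (n = 3). Central region and cohesin shares are lower in the knockouts, 29.2% and 28.0% against 33.5%, and 15.3% and 14.6% against 18.1%, while the axis share is higher, 22.4% and 23.8% against 18.9%. Within the central region Syce1 alone averages 13.6% and 12.2% against 17.1%, whereas Sycp1 and Tex12 average higher than in Control.

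Ratios of 19 pairs of genes with related roles were taken after the values had been seen. In ClpP cKO 6 ratios lay above Control, 6 below and 7 overlapped it, and in ClpX cKO 8 lay above, 7 below and 4 overlapped. No background was computed from ratios of other gene pairs. Of all single genes tested, 61.7% in ClpP cKO and 69.8% in ClpX cKO lay apart from Control. Tex12 over Syce2 was 0.664 ± 0.041 in ClpP cKO, 0.785 ± 0.12 in ClpX cKO and 0.3001 ± 0.17 in Control, where Control 3 was at 0.499 and the other 2 at 0.193 and 0.209. Rad21l over Rec8 was 0.230 ± 0.044 in ClpP cKO, 0.294 ± 0.090 in ClpX cKO and 0.113 ± 0.0081 in Control. M1ap over Tex11 was 2.80 ± 0.22, 2.14 ± 0.47 and 6.83 ± 1.6 in the same groups, the largest relative shift of the 19 pairs. Terb2 over Terb1 was 0.584 ± 0.057, 0.493 ± 0.046 and 0.294 ± 0.041. Meioc over Ythdc2 was 5.79 ± 0.088, 5.43 ± 0.24 and 6.95 ± 0.044, with little spread within a group. In each of these 5 pairs neither knockout overlapped Control.

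Syce1 over Sycp1 was 2.04 ± 0.15 in ClpP cKO, 1.66 ± 0.28 in ClpX cKO and 2.95 ± 0.53 in Control. Dmc1 over Psmc3ip was 0.256 ± 0.022, 0.384 ± 0.065 and 0.174 ± 0.0073, the ClpX cKO libraries lying above both other groups. Meiob over Spata22 was 3.50 ± 0.61, 4.41 ± 0.49 and 2.86 ± 0.41, and Msh5 over Msh4 1.70 ± 0.13, 1.93 ± 0.17 and 1.49 ± 0.18, so for these pairs ClpX cKO was above Control while ClpP cKO overlapped it. Hormad1 over Hormad2, at 5.56 ± 0.90, 5.39 ± 0.36 and 6.27 ± 0.60, overlapped Control in both knockouts (two-sided exact permutation p = 0.4 and 0.2). So did Zcwpw1 over Prdm9, at 2.45, 2.22 and 2.43 on average, and Rnf212 over Ccnb1ip1, at 0.922, 0.654 and 0.762.

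**Figure D5:**
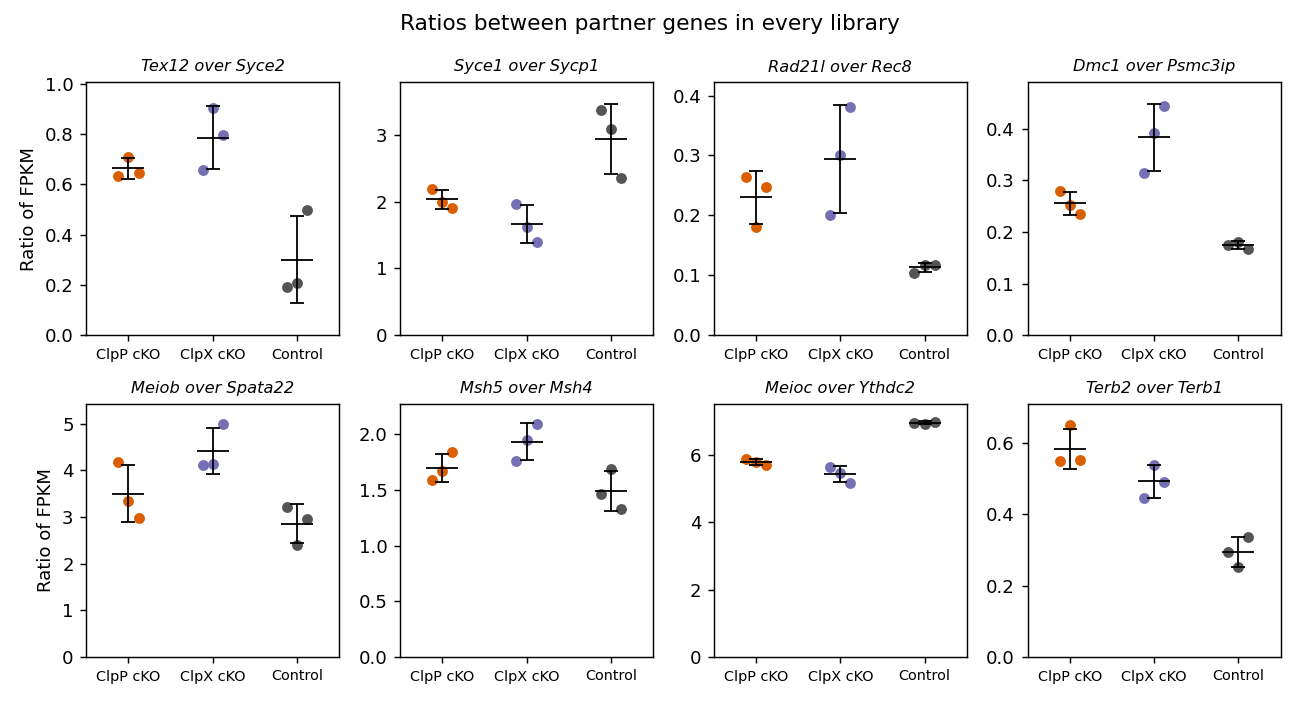
Ratio of FPKM between 8 pairs of partner genes (1 panel each) in every library of ClpP cKO, ClpX cKO and Control; points are libraries, long bars means and whiskers ± 1 SD (n = 3). Tex12 over Syce2 averages 0.664 and 0.785 in the knockouts against 0.3001 in Control, and Meioc over Ythdc2 5.79 and 5.43 against 6.95.

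The members that fell were the abundant ones. With the members divided at a mean of 20 FPKM over the 9 libraries, a level chosen after the values had been seen, 3 of the 17 more abundant members rose and 5 fell in ClpP cKO, and 3 rose and 9 fell in ClpX cKO. Of the 22 less abundant tested members, 13 rose and 0 fell in ClpP cKO and 14 rose and 0 fell in ClpX cKO. Abundant genes in general fell more often than they rose. Of the 3355 genes tested at 20 FPKM or more, 13.3% rose and 48.8% fell in ClpP cKO and 19.4% rose and 57.8% fell in ClpX cKO, and of the 13911 below that level 22.5% rose and 18.1% fell in ClpP cKO and 35.2% rose and 27.6% fell in ClpX cKO. Spearman's rho across the 39 members between mean level and change was -0.47 in both comparisons, which share the controls. After quantile normalization it was -0.04 and -0.09. Genes are not independent replicates, and rho is given as a description.

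The knockouts were not told apart by any member at the adjusted threshold. In ClpX cKO against ClpP cKO, limma voom on recovered reads called 0 of 39 members and 1039 of 17266 genes. Limma on log2(FPKM + 1) called 0 of 39 members and 18 of 17266 genes (0.104%), and in that fit 7 members had an unadjusted p under 0.05. Those were Syce1, Sycp2, Spo11, Psmc3ip and Hsf2bp, lower in ClpX cKO, and Dmc1 and Meiob, higher there. The smallest adjusted p was 0.086. Member changes ran between -0.34 and 0.32, and their 95% intervals lay between -0.75 and 0.64, so larger differences were outside every interval. Without ClpX cKO 1, 7 members were called, where fits without 1 library called 0 to 4758 of all 17266 genes. Syce1 (-0.29, adjusted p = 0.011), Smc1b (-0.27, 0.024), Psmc3ip (-0.31, 0.013) and Tex15 (-0.21, 0.045) were then lower, and Dmc1 (0.36, 0.013), Meiob (0.40, 0.035) and Ccnb1ip1 (0.33, 0.037) were higher. Without Control 3 as well, 8 were called, including Spo11 (-0.42, 0.024) and Syce2 (-0.34, 0.011), beside 5149 of all 17266 genes.

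Other genes of the same pathway were also called higher more often than lower. Of 69 further meiotic genes listed, 68 were matched and tested. In ClpP cKO 34 rose and 9 fell, with a median change of 0.22, and in ClpX cKO 29 rose and 13 fell, with a median of 0.18. The called share was 63.2% and 61.8%, against 44.7% and 65.6% of all genes tested. Quantile normalization gave 39 higher and 3 lower in ClpP cKO and 38 and 3 in ClpX cKO, and scaling to own totals gave 42 and 5 in each, scalings under which the split of all genes also moved towards higher. Limma voom on recovered reads gave fewer calls, 23 higher and 6 lower in ClpP cKO and 27 and 11 in ClpX cKO. Fits without 1 library called 19 to 45 of these genes in ClpP cKO and 37 to 46 in ClpX cKO. The largest group, 21 genes that sense and repair breaks, had 15 higher and 2 lower in ClpP cKO and 11 higher and 3 lower in ClpX cKO. Atm, the kinase that responds to breaks, changed by 0.56 ± 0.08 in ClpP cKO and 0.65 ± 0.08 in ClpX cKO (adjusted p = 0.0086 and 0.00047). The 3 subunits of the single-strand binding protein RPA did not move alike. Rpa3 changed by 0.56 ± 0.07 and 0.62 ± 0.07 (adjusted p = 0.0086 and 0.00045) and Rpa2 by 0.39 ± 0.12 and 0.63 ± 0.12 (adjusted p = 0.03 and 0.0021), whereas Rpa1 fell by 0.39 ± 0.06 and 0.50 ± 0.06 (adjusted p = 0.0086 and 0.00048). After quantile normalization Rpa1 changed by -0.10 in both and was not called (adjusted p = 0.26 and 0.22). In ClpP cKO the call of Rpa2 was lost under voom (adjusted p = 0.055) and without ClpP cKO 2, ClpP cKO 3, Control 1 or Control 2 (0.08 to 0.1). Topbp1, which activates the kinase ATR, changed by 0.51 ± 0.08 and 0.61 ± 0.08 (adjusted p = 0.0086 and 0.00057).

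The list of 7 genes headed meiotic entry is not limited to that step, since it also holds Zfp541. In this list 3 rose and 1 fell in ClpP cKO, and 2 rose and 3 fell in ClpX cKO. The 2 that rose in ClpX cKO were Stra8 and Gm4969. Stra8, the activator of meiotic initiation, changed by 0.56 ± 0.08 in ClpP cKO and 0.73 ± 0.08 in ClpX cKO (adjusted p = 0.0086 and 0.00045), and Gm4969, its partner MEIOSIN, by 0.52 ± 0.12 and 0.68 ± 0.12 (adjusted p = 0.014 and 0.0017), with the call in ClpP cKO lost without Control 1 (0.05). Zfp541, which acts at pachytene, fell by 0.42 ± 0.07 and 0.53 ± 0.07 (adjusted p = 0.0086 and 0.0005), and quantile normalization left -0.06 in both with no call (0.44 and 0.43). In the synapsis and axis list 5 of 13 rose and 3 fell in ClpP cKO and 6 rose and 2 fell in ClpX cKO. There 4930447C04Rik, which encodes the central element protein SIX6OS1, changed by 0.74 ± 0.12 and 0.66 ± 0.12 (adjusted p = 0.0086 and 0.0015), and Plk1, a kinase that takes the synaptonemal complex apart, fell by 0.70 ± 0.11 in both (adjusted p = 0.0086 and 0.001). The 14 crossover genes gave 7 higher and 2 lower in ClpP cKO and 6 higher and 2 lower in ClpX cKO, with Fkbp6 at 0.60 ± 0.13 and 0.80 ± 0.13 (adjusted p = 0.011 and 0.00092) and Prr19, needed for crossover designation, falling by 0.52 ± 0.12 and 0.65 ± 0.12 (adjusted p = 0.012 and 0.0015; not called after quantile normalization, at -0.23 and -0.27, 0.14 and 0.063). Of 6 break formation genes 2 rose in each knockout, Gm960 (0.47 ± 0.14 and 0.41 ± 0.14, adjusted p = 0.027 and 0.03) and Hells (0.44 ± 0.09 and 0.56 ± 0.09, adjusted p = 0.0096 and 0.00082). The calls of Gm960 were lost without Control 1, Control 2 or library 2 or 3 of the knockout compared (adjusted p = 0.062 to 0.092 in ClpP cKO and 0.056 to 0.1 in ClpX cKO). Of 7 telomere and envelope genes, 2 rose and 1 fell in ClpP cKO and 2 rose and 3 fell in ClpX cKO. Sun2, which can stand in for SUN1, changed by 0.46 ± 0.11 and 0.99 ± 0.11 (adjusted p = 0.016 and 0.00045), and in ClpP cKO its call was lost without ClpP cKO 3 (0.057).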

How the data were processed

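RNA sequencing was made from 9 libraries, 3 each of ClpP cKO, ClpX cKO and Control, with a column extraction kit and the SMARTER mRNA kit, per the labels' protocols. The authors deposited FPKM for 54532 genes, with a gene length in bases as another column per the file headers, on GRCm38 (mm10) per the submitters' processing notes. The aligner and counter are not given in the sources used here. FPKM times length came out as whole reads for 100% of values (tolerance 0.01 of a read), 14334436 to 17021685 reads per library. The deposited FPKM are not scaled to a library's own reads. Their per-million denominator was 1.05 ± 0.0037 times that total in ClpP cKO, 1.07 ± 0.017 in ClpX cKO and 0.919 ± 0.028 in Control (SD, n = 3 each), and median-of-ratios scaling left the values as they were.

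The deposited FPKM were tested as log2(FPKM + 1), two-sided, by limma (version 3.58.1, R version 4.3.3). One fit with a trended prior variance held the 9 libraries, after a filter at a mean FPKM of at least 1 that kept 17266 genes. The fold changes of low genes are understated by the pseudocount of 1. A call needs a p under 0.05 after Benjamini-Hochberg adjustment over these genes. The members and lists were chosen with earlier results of these data known. Values in every library are given for up to 3 members per role with the smallest adjusted p, and Syce2 and Rad21l were added after their values were seen. In the list of other meiotic genes, up to 3 per role were named by the same rule, and Gm960 and Rpa2 were added. Positions and names are those of the table, and 38 of 40 members have the same start and end in GENCODE M21. Tables were made with Python 3.11.15 and pandas 2.3.3 and figures with matplotlib 3.10.9. The alternatives are named in the closing section.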

Additional observations from a re-analysis of the deposited data

How the results depend on the processing

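Of 2205 values of single genes under the alternatives other than median-of-ratios scaling, whose factors were all 1 and which returned the same values, 1986 kept their direction and their side of the threshold, 80 lost and 79 gained a call, 50 values with no call moved and 10 reversed. The alternatives were a pseudocount of 0.1, no filter, a filter at 5 FPKM, quantile scaling, scaling to own totals of gene reads, limma voom on recovered reads, a replicate block, only the 6 libraries compared, protein-coding genes only, and leaving out libraries. The reversals under quantile normalization were Syce1 (0.11 in ClpP cKO, 0.0088 in ClpX cKO), Syce3 (0.021 and 0.030), Stag3 (0.10 and 0.11) and, in ClpX cKO, Smc1b (0.10), Psmc3ip (0.070) and Sycp2 (0.49). Scaling to own totals reversed Hsf2bp in ClpX cKO (0.0060). The cause was not tested.

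The median change of the members was 0.33 in ClpP cKO, 0.32 in ClpX cKO and 0.0083 in ClpX cKO against ClpP cKO under quantile normalization, and 0.395 and 0.415 against Control under own totals. Own totals, tried for the summed level of the members after seeing the data, put the sum 142.5 FPKM above Control in ClpP cKO and 115 FPKM above it in ClpX cKO, against differences of -3.1 and -60.2 FPKM as deposited. The median change of the members was 0.29 in ClpP cKO under voom, and 0.30 and 0.31 without Control 3 and ClpX cKO 1. Leaving out these libraries together gave 8 called members and 8 called other meiotic genes between the knockouts. Over all genes, ClpX cKO had 6871 calls at a mean FPKM of at least 5, where 9404 genes were tested. Between the knockouts all genes gave 29 calls under quantile normalization, 1039 under voom, 1 with the replicate block, 89 with 6 libraries and 5149 without Control 3 and ClpX cKO 1, and voom called 1 other meiotic gene. Against Control voom called 6539 genes in ClpP cKO and 10443 in ClpX cKO.

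Leaving out 1 library gave 14 to 24 called members in ClpP cKO, 21 to 27 in ClpX cKO and 0 to 7 between the knockouts, other meiotic genes at 19 to 45, 37 to 46 and 0 to 8, and all genes at 3617 to 8729, 9825 to 11779 and 0 to 4758. The median of members ran from 0.18 to 0.30, from 0.17 to 0.30 and from -0.08 to -0.04. The replicate block called 23 members in ClpP cKO, 26 in ClpX cKO and 0 between the knockouts. Deviations of same-numbered libraries correlated at 0.0639, 0.0567 and -0.0702 between ClpP cKO and Control, at 0.126, 0.0472 and 0.191 between ClpX cKO and Control and at 0.234, 0.173 and 0.0196 between ClpX cKO and ClpP cKO, so the numbers are not shown to pair the libraries.

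With 3 libraries a group, exact tests of shares and ratios cannot go below 0.1. Mei4, at 11 to 30 reads per library, is the member with the least depth.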
